A study of Mus musculus with 20 samples.

Results

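The 10 genes described here lie around the perilipin 2 gene (Plin2) on mouse chromosome 4: Ptprd, Mpdz, Nfib, Ttc39b, Snapc3, Psip1, Ccdc171, Rraga, Haus6 and Dennd4c. They were taken by name as genes near Plin2 whose RNA level was followed between Plin2+/+ and Plin2-null liver, and they were selected on the measured genotype difference itself, which is therefore described and not tested. They are 10 of 55487 genes in the deposited count table, and 10 of 10 passed the filter on low counts that left 16312 genes for testing. RNA was sequenced from liver of 20 female mice, 15 weeks old, on a C57BL/6N background. Of these, 5 were Plin2+/+ mice fed chow, 5 were Plin2+/+ mice fasted for 24 h, 5 were Plin2-/- mice fed chow and 5 were Plin2-/- mice fasted for 24 h. For the 10 null libraries the labels name only the feeding state, so their genotype was read by elimination from the design text. The sources used here do not say how the null allele was made. Nothing in the labels states that the samples of a group were housed or prepared separately, so p-values measure only the spread between these samples.

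Perilipin 2 coats cytosolic lipid droplets and is abundant in liver when triglyceride is stored, as in fasting. Genes that lie close together on a chromosome are inherited together more often than distant ones, so animals selected for an allele at 1 locus also tend to share the DNA around it. The genes around Plin2 have unrelated functions. Rraga encodes RagA, a small GTPase that carries amino acid signals to mTORC1 at the lysosome. Ttc39b encodes a tetratricopeptide repeat protein that promotes turnover of the LXR nuclear receptors, and Nfib encodes a nuclear factor I transcription factor. Mpdz encodes a scaffold with many PDZ domains found at tight junctions, and Ptprd encodes a receptor-type protein tyrosine phosphatase. Psip1 encodes the chromatin-binding protein LEDGF, and Snapc3 a subunit of the complex that activates small nuclear RNA genes. Haus6 encodes a subunit of augmin, which takes part in microtubule nucleation in the spindle. Dennd4c encodes an exchange factor for the GTPase Rab10, and Ccdc171 encodes a coiled-coil protein.

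In GENCODE M21 on GRCm38, Plin2 is at chr4:86648386-86670060 on the minus strand. Of the 10 genes, 9 lie on its centromeric side and Dennd4c lies on its telomeric side. The nearest are Haus6 (chr4:86578855-86612055), 36.3 kb away, Rraga (chr4:86575668-86577285), 71.1 kb away, and Dennd4c (chr4:86748555-86850603), 78.5 kb away. Next on the centromeric side come Ccdc171 (chr4:83525545-83864670), 2.78 Mb away, Psip1 (chr4:83455680-83486459), 3.16 Mb away, and Snapc3 (chr4:83417724-83467676), 3.18 Mb away. Farther out are Ttc39b (chr4:83220300-83324255) at 3.32 Mb, Nfib (chr4:82290173-82705750) at 3.94 Mb, Mpdz (chr4:81278500-81442815) at 5.21 Mb and Ptprd (chr4:75941238-78211961) at 8.44 Mb. Snapc3 and Psip1 overlap over 12.0 kb on opposite strands, and the strand setting of the counting is not given, so reads in that stretch cannot be assigned with certainty. Nfib also contains the antisense gene Gm11266, at a mean of 1.49 CPM (counts scaled to library size). Rraga and Haus6 converge with 1.57 kb between their ends.

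The RefSeq promoter table for GRCm38.p6 held 6 of the 10 genes. The 250 bases upstream of Ccdc171 and Dennd4c are shown, because both genes rose on fasting in Plin2+/+ liver and were lower in null than in Plin2+/+ liver after fasting (values below). Capitals mark GGGCGG, the core of a GC box, or its reverse complement CCGCCC.
Ccdc171, chr4:83525295-83525544, plus strand: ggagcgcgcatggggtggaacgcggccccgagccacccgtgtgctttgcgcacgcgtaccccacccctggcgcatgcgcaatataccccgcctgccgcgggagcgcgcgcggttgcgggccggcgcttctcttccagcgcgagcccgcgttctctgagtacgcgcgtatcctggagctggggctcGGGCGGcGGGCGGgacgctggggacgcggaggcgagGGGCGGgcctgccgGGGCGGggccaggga
Dennd4c, chr4:86748305-86748554, plus strand: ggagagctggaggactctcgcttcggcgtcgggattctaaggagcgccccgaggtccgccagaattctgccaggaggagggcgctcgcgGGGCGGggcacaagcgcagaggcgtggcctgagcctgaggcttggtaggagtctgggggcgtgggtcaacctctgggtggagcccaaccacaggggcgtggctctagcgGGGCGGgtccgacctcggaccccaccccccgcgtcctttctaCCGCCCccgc
The Ccdc171 window had 76.4% GC, 39 CpG dinucleotides and 4 GC-box matches. The Dennd4c window had 70.8% GC, 23 CpG dinucleotides and 3 GC-box matches. The median over 32851 promoters of the same length was 6 CpG dinucleotides, and 32.7% of them held a GC-box match on either strand. The other windows of the set were also above that median. Ttc39b, which fell on fasting (values below), had 71.2% GC, 22 CpG dinucleotides and 3 GC-box matches. Its window, chr4:83324190-83324439 on the minus strand, reaches into the GENCODE M21 gene, which ends at 83324255. It is thus not wholly upstream. Snapc3, Rraga and Haus6 had 21, 19 and 12 CpG dinucleotides and 1, 0 and 0 GC-box matches. These traits are thus not particular to the 2 genes shown. Neither window held CCAAT or its reverse complement ATTGG (33.8% of all promoters), nor TATAAA or TTTATA (12.4%). No motif contains another, and a match describes the letters only.

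The targeted gene followed the labels. Plin2 stood at 260 ± 58.2 CPM in fed Plin2+/+ liver and 19.7 ± 6.96 in fed null liver, 13.2-fold lower (SD, n = 5; exact permutation test on log2(CPM + 1), two-sided, p = 0.00794, the smallest that 5 against 5 allows; adjusted over both feeding states 0.00794). In fasted liver it stood at 1494 ± 240 CPM in Plin2+/+ and 90.5 ± 22.6 in null mice, 16.5-fold lower (exact permutation p = 0.00794, adjusted 0.00794). Between 689 and 6318 Plin2 counts per library remained in the null samples, and which part of the gene they came from was not analysed here. Libraries held between 25506471 and 65579038 counts in total. The summed level of 8 hepatocyte markers, among them albumin (Alb), was 84600 to 169000 CPM over all libraries, with 8 of 8 detected. The 2 adipocyte markers summed to at most 0.214 CPM.

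Per kilobase of transcript, in the deposited TPM values, the 10 genes spanned a wide range in fed Plin2+/+ liver. Rraga was highest at 35.4 ± 3.30 TPM (SD, n = 5), followed by Nfib at 22.9 ± 0.646, Ptprd at 17.5 ± 1.57 and Ttc39b at 14.9 ± 0.599. Psip1 at 11.0 ± 0.787 and Dennd4c at 10.7 ± 1.09 overlapped in their ranges. Mpdz stood at 5.88 ± 0.787 and Snapc3 at 3.24 ± 0.769. The lowest were Haus6 at 2.02 ± 0.180 and Ccdc171 at 1.57 ± 0.271, whose ranges also overlapped. The remaining neighbours in this order did not overlap. In fed null liver the order of means differed: Ttc39b, at 24.5 ± 3.28 TPM, stood above Ptprd without overlap. The mean of Mpdz, at 13.4 ± 0.708, stood above those of Psip1 and Dennd4c, but the ranges overlapped. They were 12.3 to 14.1 TPM for Mpdz, 9.90 to 14.0 for Psip1 and 10.3 to 13.4 for Dennd4c. In fasted null liver Ttc39b, Mpdz, Dennd4c and Psip1, at 10.8 ± 2.20, 10.6 ± 1.97, 10.1 ± 3.15 and 9.74 ± 1.504 TPM, each overlapped the next, and Ccdc171 was last at 0.692 ± 0.210.

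**Figure D1:**
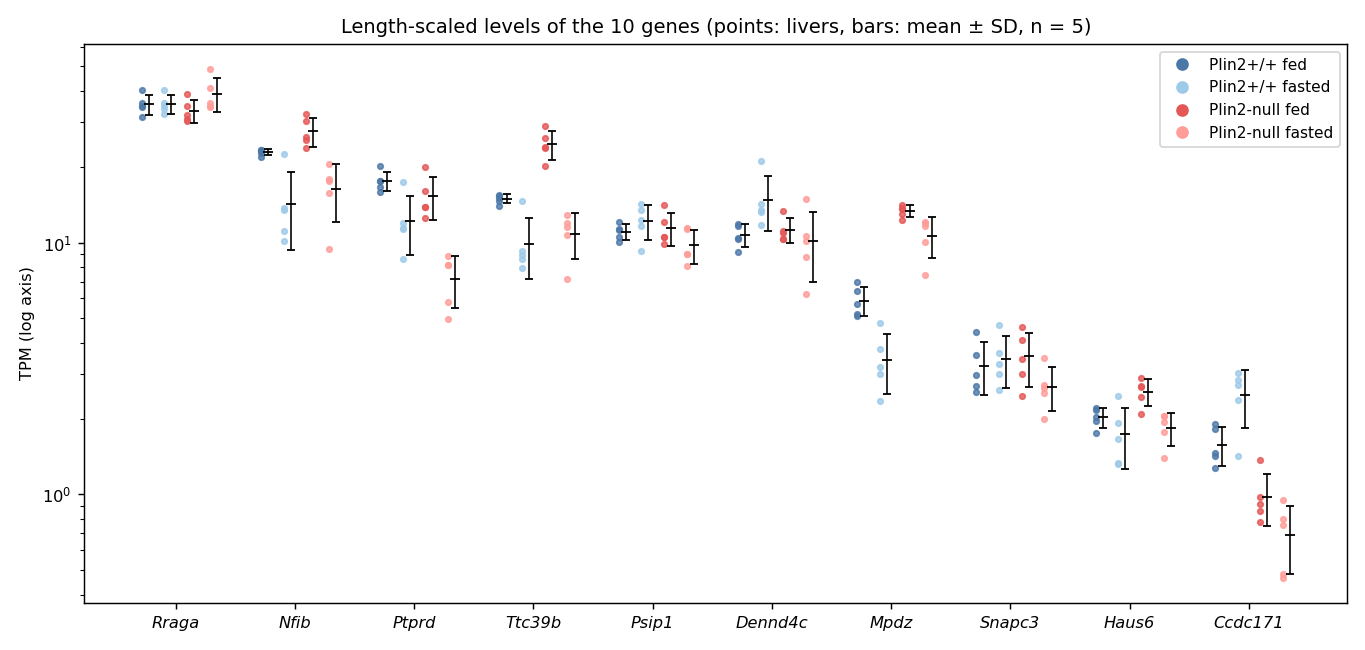
TPM on a log axis for each of the 10 genes, ordered by level in fed Plin2+/+ liver; each point is 1 liver and black bars are the mean ± SD of 5. Rraga is at the top in all 4 groups (33.4 to 39.0 TPM), and Ccdc171 is last in 3 of the 4.

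By genotype, Mpdz was higher and Ccdc171 lower in null than in Plin2+/+ liver in both feeding states, Ttc39b was higher in the fed state, and Ptprd was lower in the fasted state. The other 6 genes overlapped between genotypes in CPM in both feeding states, though Nfib did not in fed liver on the TPM scale (21.8 to 23.4 in Plin2+/+ and 23.7 to 32.4 in null mice). These are the differences on which the genes were chosen, so they are given as a description, without a test. Values are TMM-scaled CPM, and a fold change (log2) is given with its standard error from the edgeR fit.

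Mpdz, the PDZ scaffold, read 22.6, 25.0, 29.8, 29.4 and 32.2 CPM in the 5 fed Plin2+/+ livers and 61.8, 54.7, 56.5, 61.2 and 61.3 in the 5 fed null livers. Every null library lay above every Plin2+/+ library, a 2.13-fold difference in means (log2 difference 1.09 ± 0.11). In fasted liver it read 21.5, 18.5, 13.4, 18.0 and 17.5 CPM in Plin2+/+ and 62.5, 56.6, 56.2, 54.1 and 55.4 in null mice. The groups were again apart, 3.21-fold in means (log2 difference 1.68 ± 0.11). The null mean was 59.1 CPM fed and 57.0 fasted, while the Plin2+/+ mean was 27.8 fed and 17.8 fasted.

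Ccdc171, the coiled-coil gene, ran the other way. It read 3.03, 3.38, 4.78, 2.81 and 4.07 CPM in fed Plin2+/+ liver and 1.89, 2.78, 1.72, 1.92 and 2.10 in fed null liver, a 1.74-fold lower mean (log2 difference -0.80 ± 0.20). The fed groups only just parted, the highest null library at 2.78 and the lowest Plin2+/+ library at 2.81, and on the TPM scale they overlapped (1.27 to 1.90 against 0.778 to 1.37). In fasted liver it read 6.58, 8.42, 7.49, 3.81 and 5.32 CPM in Plin2+/+ and 1.99, 1.32, 1.71, 2.07 and 1.73 in null mice, 3.58-fold lower (log2 difference -1.84 ± 0.21). There the groups were apart on both scales. Ccdc171 was the least abundant of the 10 genes in every group but fasted Plin2+/+ liver, where Haus6 was lower at a mean of 4.67 CPM. Ccdc171 had 44 to 448 counts per library.

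Ttc39b, which acts on LXR turnover, read 52.9, 60.5, 64.5, 58.3 and 53.4 CPM in fed Plin2+/+ liver and 96.9, 69.3, 89.0, 103 and 87.4 in fed null liver. All 5 null libraries were above all 5 Plin2+/+ libraries, 1.54-fold in means (log2 difference 0.62 ± 0.12). In fasted liver the genotypes overlapped, at 35.3 to 53.6 CPM in Plin2+/+ and 44.3 to 54.4 in null mice (log2 difference 0.18 ± 0.12).

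Ptprd, the receptor phosphatase, read 143, 135, 89.5, 117 and 96.2 CPM in fasted Plin2+/+ liver and 83.9, 84.2, 69.4, 67.6 and 50.8 in fasted null liver. The groups did not overlap in CPM, with null 1.63-fold lower in means (log2 difference -0.71 ± 0.15), but they overlapped in TPM (8.57 to 17.4 against 4.99 to 8.86). In fed liver the genotypes overlapped, at 136 to 162 CPM in Plin2+/+ and 105 to 158 in null mice (log2 difference -0.30 ± 0.15).

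Dennd4c, the Rab10 exchange factor, read 64.1, 56.0, 51.1, 44.6 and 45.1 CPM in fasted Plin2+/+ liver and 37.3, 38.8, 32.4, 45.9 and 28.5 in fasted null liver. A single null library reached into the Plin2+/+ range, and the null mean was 1.43-fold lower (log2 difference -0.51 ± 0.12). In fed liver the means were 34.5 ± 3.03 and 33.8 ± 3.38 CPM. The other 5 genes, Nfib, Snapc3, Psip1, Rraga and Haus6, had log2 genotype differences of 0.18, 0.04, -0.05, -0.18 and 0.24 in fed liver and 0.23, -0.32, -0.28, 0.20 and 0.13 in fasted liver. Rraga and Haus6, the genes nearest to Plin2, were thus among those with overlapping genotypes, at 16.9 to 23.2 CPM for Rraga and 4.67 to 6.54 for Haus6 over the 10 fed libraries.

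**Figure D2:**
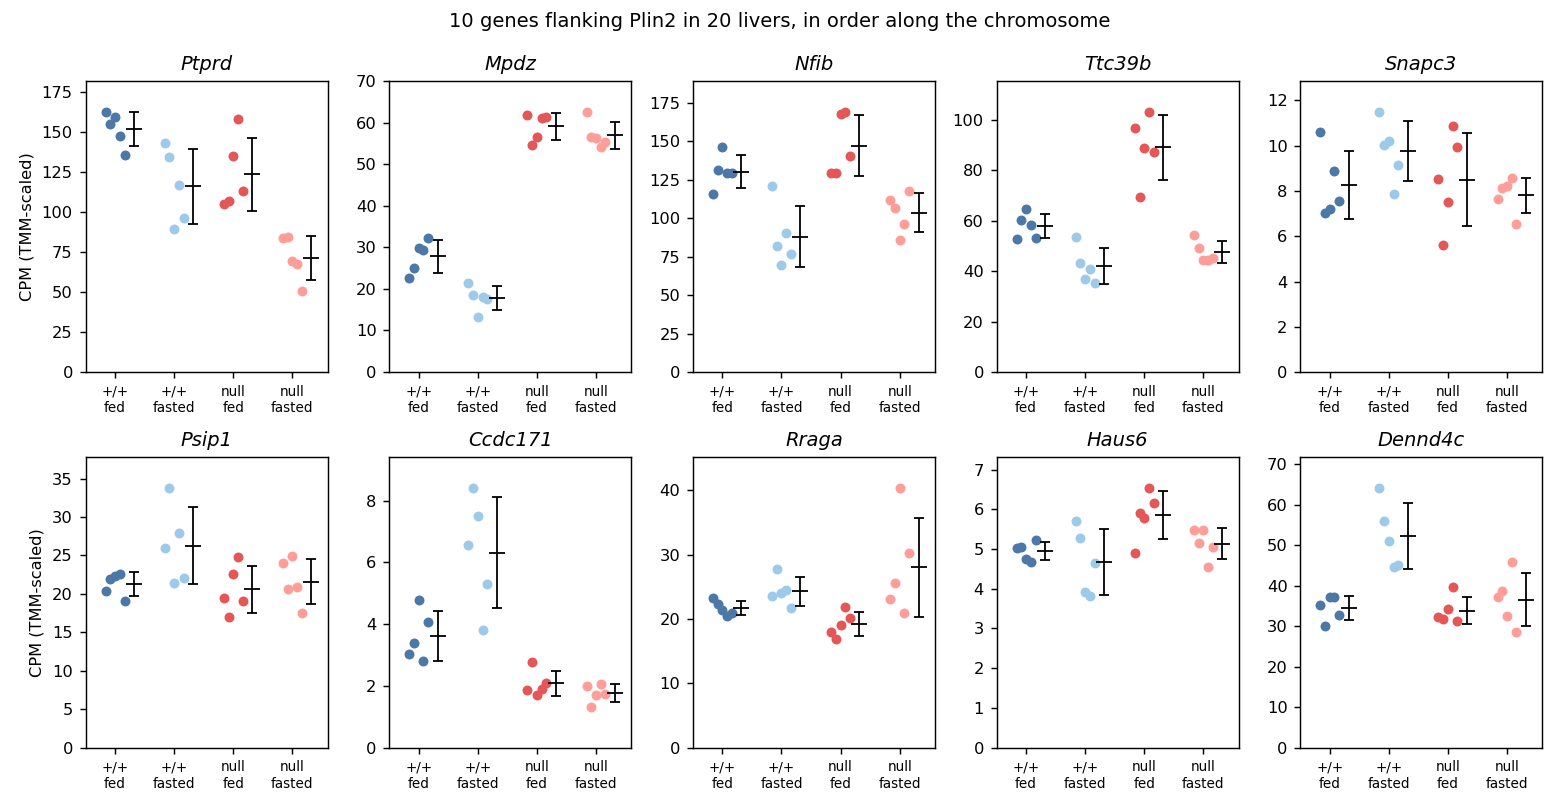
TMM-scaled CPM (linear axes from 0, scaled per gene) of the 10 genes in each of 20 livers, panels in order along the chromosome; points are livers and black bars the mean ± SD of 5. Mpdz separates by genotype in both feeding states (22.6 to 32.2 against 54.7 to 61.8 CPM fed), while Ccdc171 is low in the null groups (1.32 to 2.78 CPM).

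Counted over the 10 genes, Mpdz was called in fed liver at an edgeR Benjamini-Hochberg adjusted p under 0.05, as higher, beside 0.0184% of all genes tested (0.0123% as higher). In fasted liver 4 of 10 were called, Mpdz as higher and Ccdc171, Ptprd and Dennd4c as lower, beside 3.24% of all genes (1.51% as higher and 1.73% as lower). CPM ranges did not overlap for 3 of 10 genes in fed liver, beside 0.877% of all genes, and for 3 of 10 in fasted liver, beside 4.08%. The rule used these contrasts, and nothing is read from the counts. The median log2 difference of the 10 genes was 0.01 fed and -0.08 fasted, beside 0.00 and 0.02 over all genes. The fasted count was 2, Mpdz and Ccdc171, without null fasted replicate 5, without Plin2+/+ fasted replicate 1 and without Plin2+/+ fasted replicate 2. Dennd4c alone was lost without null fasted replicate 1 or 3 or Plin2+/+ fasted replicate 3. It alone was also lost with library size alone in place of TMM and with each library's GC trend removed. Over 30 alternatives, left-out libraries included, Dennd4c was called in fasted liver in 19, Ptprd in 24 and Mpdz in 30. The fed count was 2, Ttc39b joining Mpdz, without null fed replicate 2 and without Plin2+/+ fasted replicate 1.

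To place the 10 genes among all genes of the region, every tested gene of chromosome 4 with its midpoint within 20 Mb of Plin2 was taken, whatever its values. The window held 166 protein-coding genes of the count table besides Plin2, of which 75 were tested and 60 had no count in any library; with other gene types 99 genes were tested. In fed liver 1 of these 99 was called (1.01%), Mpdz, and 0 of the 89 that are not among the 10 (edgeR adjusted p). DESeq2 and limma voom each called 0 of the 89. Unadjusted, edgeR put 7 of the 89 under 0.05, beside 694 of all 16312 genes. The fed count of called genes in the window was 2 without null fed replicate 2 and without Plin2+/+ fasted replicate 1. In fasted liver 7 of 99 were called (7.07%), the 4 named above and 3 of the other 89 (3.37%). On the rest of chromosome 4 it was 31 of 881 (3.52%), and on other chromosomes 489 of 15331 (3.19%). Unadjusted, edgeR put 25 of the 89 under 0.05, beside 3962 of all 16312 genes. The 10 genes were chosen on this difference, so taking them out lowers the share of the other 89 in both feeding states. Nothing is read from how that share compares with the rest of the genome. The fasted count in the window was 2 without null fasted replicate 5, 2 without Plin2+/+ fasted replicate 1, 2 without replicate 2, 3 without replicate 3, 13 without replicate 4 and 12 without replicate 5 of that group.

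The 3 others were Mier1, a transcriptional corepressor gene 16.5 Mb away, Usp1, a deubiquitinase gene of DNA repair 12.3 Mb away, and E130102H24Rik, 14.7 Mb away, all on the telomeric side. Mier1 was lower in fasted null liver, at 38.0 ± 2.96 CPM against 53.6 ± 8.35 in fasted Plin2+/+ liver (log2 difference -0.50 ± 0.10, edgeR adjusted p = 0.0186). E130102H24Rik was lower at 10.4 ± 2.17 CPM against 18.0 ± 2.62 (-0.80 ± 0.17, edgeR adjusted p = 0.0191). Usp1 was lower at 22.4 ± 2.66 CPM against 31.8 ± 8.41 (-0.51 ± 0.14, edgeR adjusted p = 0.0495). The ranges of Mier1 and E130102H24Rik did not overlap between genotypes in fasted liver, and those of Usp1 did. With library size alone in place of TMM, and on both TPM scales, 0 of these other 89 genes were called, and DESeq2 called 10. None was called either without null fasted replicate 5 or without Plin2+/+ fasted replicate 1, 2 or 3, where those called in the window were all among the 10 genes. By band of distance, the genes called in fasted liver were 1 of 12 within 2 Mb, 1 of 14 at 2 to 5 Mb, 2 of 22 at 5 to 10 Mb and 3 of 51 at 10 to 20 Mb. The first 3 bands held only genes of the 10 among those called. Those genes were chosen on this difference, so nothing is read from the bands.

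The nearest tested protein-coding genes that are not among the 10 passed no genotype test at an edgeR adjusted p under 0.05. Unadjusted, 2 of these 10 neighbours were under 0.05 in each feeding state, beside 694 of all 16312 genes fed and 3962 fasted. On the centromeric side the neighbours were Adamtsl1, Cntln, Frem1, Zdhhc21 and Lurap1l, and on the telomeric side Rps6, Acer2, Mllt3, Focad and Hacd4. In fed liver the edgeR adjusted p was 1 for each, and in fasted liver it ran from 0.112 for Lurap1l to 0.999 for Focad. The CPM ranges of 2 of these genes were nevertheless apart between genotypes in 1 feeding state. Rps6, a ribosomal protein gene close to Dennd4c, read 148 to 161 CPM in fed Plin2+/+ and 101 to 135 in fed null liver (log2 difference -0.30 ± 0.11, edgeR adjusted p = 1). Acer2, an alkaline ceramidase gene 0.25 Mb from Plin2, read 34.5 to 57.5 CPM in fasted Plin2+/+ and 23.1 to 30.1 in fasted null liver (-0.72 ± 0.27, edgeR adjusted p = 0.12). Zdhhc21, a palmitoyltransferase gene between Nfib and Ttc39b, read 17.0 ± 1.86 and 16.9 ± 1.63 CPM in the fed groups, with overlap.

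**Figure D3:**
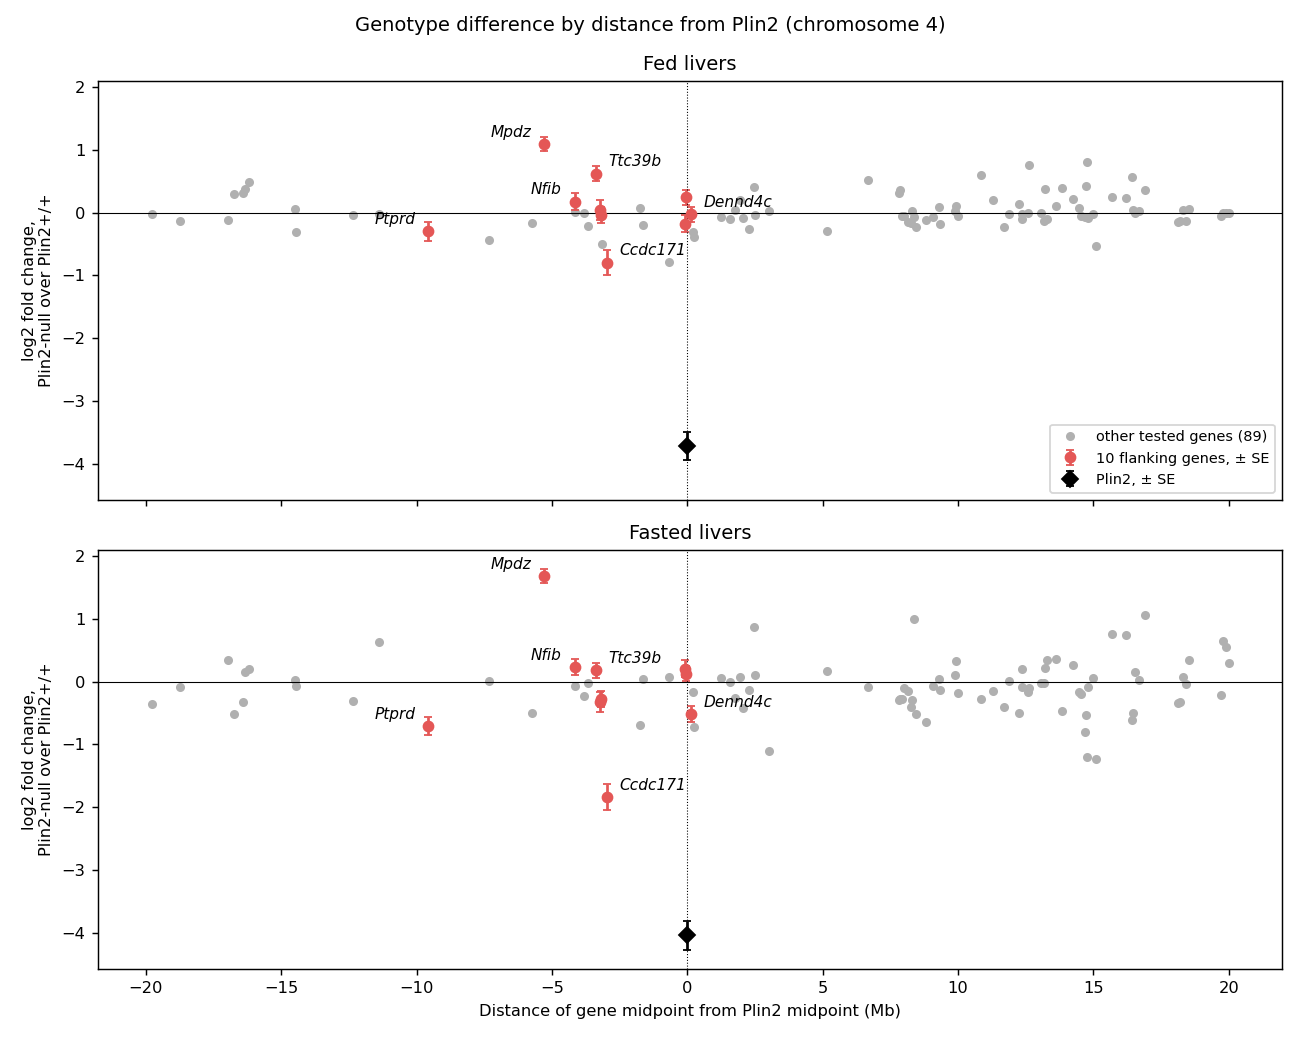
Log2 fold change, null over Plin2+/+, against distance in Mb between gene and Plin2 midpoints (negative: centromeric) for the 99 tested genes (grey: 89 others; red: the 10 genes ± SE) and Plin2 (black diamond ± SE), in fed and fasted liver. Mpdz is the highest point in both panels (1.09 and 1.68), Ccdc171 is the lowest besides Plin2 in both (-0.80 and -1.84), and of the 4 genes of the set between them on the chromosome Ttc39b is at 0.62 fed and 0.18 fasted, while Nfib, Snapc3 and Psip1 run from -0.32 to 0.23.

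Fasting was not itself the comparison on which the genes were chosen. The fasting changes nevertheless use the same libraries as the genotype differences behind that choice. Their adjusted p-values are therefore not independent of the choice, and for these genes they are given as descriptions. In Plin2+/+ liver Ccdc171 and Dennd4c rose and Mpdz, Nfib, Ttc39b and Ptprd fell, and in null liver Rraga rose and Ptprd, Nfib and Ttc39b fell. That is 6 of 10 genes called in Plin2+/+ liver, beside 42.6% of all genes (20.9% higher and 21.7% lower), and 4 of 10 in null liver, beside 36.1% (18.0% higher and 18.1% lower). Nothing particular to these genes is read from either share. The median log2 change of the 10 genes was 0.05 in Plin2+/+ and -0.16 in null liver, beside -0.01 over all genes in each. CPM ranges did not overlap between fed and fasted for 2 of 10 genes in Plin2+/+ liver, Mpdz and Dennd4c, beside 26.7% of all genes. In null liver they did not overlap for 3 of 10, Ptprd, Nfib and Ttc39b, beside 24.5%.

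Both genotypes shared the fall of Nfib, Ttc39b and Ptprd. Nfib, the transcription factor gene, read 116, 131, 146, 129 and 129 CPM in fed and 121, 82.1, 69.7, 90.6 and 76.6 in fasted Plin2+/+ liver (log2 change -0.57 ± 0.13, edgeR adjusted p = 0.00146). A single fasted library, replicate 1, lay in the fed range. In null liver it read 130, 129, 168, 169 and 140 fed and 111, 107, 85.7, 95.8 and 118 fasted, with no overlap (-0.51 ± 0.13, edgeR adjusted p = 0.00436). Ttc39b fell from 57.9 ± 4.91 to 42.0 ± 7.22 CPM in Plin2+/+ liver (-0.46 ± 0.12, edgeR adjusted p = 0.0028). In null liver it fell from 89.1 ± 12.8 to 47.5 ± 4.36, from the higher fed level given above (-0.91 ± 0.12, edgeR adjusted p = 3.02e-06). The null groups were apart, and the Plin2+/+ groups met at 1 fasted library of 53.6 CPM.

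Ptprd fell in null liver from 124 ± 22.8 to 71.2 ± 13.8 CPM, the groups being apart (log2 change -0.80 ± 0.15, edgeR adjusted p = 0.000244). In Plin2+/+ liver it fell from 152 ± 10.7 to 116 ± 23.3 CPM (-0.39 ± 0.15, edgeR adjusted p = 0.0392). That call was lost without any 1 of 6 libraries, Plin2+/+ fasted replicates 3, 4 and 5 (edgeR adjusted p = 0.117, 0.0582 and 0.0959) and Plin2+/+ fed replicates 1, 2 and 3 (0.0742, 0.0662 and 0.0729), in a range of 0.0175 to 0.117 over all libraries left out.

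Mpdz fell on fasting in Plin2+/+ liver from 27.8 ± 3.91 to 17.8 ± 2.92 CPM, with every fasted library under every fed one (log2 change -0.65 ± 0.11, edgeR adjusted p = 6.78e-05). In null liver it read 59.1 ± 3.26 fed and 57.0 ± 3.24 fasted (-0.05 ± 0.11, edgeR adjusted p = 0.736). Ccdc171 rose in Plin2+/+ liver from 3.61 ± 0.809 to 6.32 ± 1.81 CPM (0.81 ± 0.20, edgeR adjusted p = 0.00212), with 1 fasted library inside the fed range. In null liver it read 2.08 ± 0.414 and 1.77 ± 0.298 (-0.23 ± 0.21, edgeR adjusted p = 0.406). Dennd4c rose in Plin2+/+ liver from 35.1, 30.2, 37.2, 37.1 and 32.7 CPM fed to the fasted values above, which all lay higher (0.60 ± 0.12, edgeR adjusted p = 0.000422). In null liver it read 33.8 ± 3.38 and 36.6 ± 6.64 (0.11 ± 0.12, edgeR adjusted p = 0.497).

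Whether these fasting responses differ between genotypes was estimated as an interaction: the null over Plin2+/+ log2 difference of fasted liver less the one of fed liver. It was 0.59 ± 0.15 on the log2 scale for Mpdz, -1.05 ± 0.29 for Ccdc171, -0.49 ± 0.17 for Dennd4c, -0.44 ± 0.16 for Ttc39b, -0.41 ± 0.21 for Ptprd and 0.38 ± 0.19 for Rraga. For the other 4 genes it lay between -0.36 and 0.06. These estimates are built from the genotype differences on which the genes were chosen, so no test of them is given. A call in 1 genotype and not in the other is not read as a difference in response.

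Rraga, the RagA gene, rose in null liver from 18.0, 16.9, 19.1, 21.8 and 20.1 CPM fed to 23.1, 25.6, 40.4, 21.01 and 30.2 fasted (log2 change 0.55 ± 0.13, edgeR adjusted p = 0.0026). The groups overlapped at 1 library each, and the highest value came from the fasted null library with the lowest TMM factor, 0.750. On the deposited TPM values the call was lost (0.21 on log2(TPM + 1), limma adjusted p = 0.165, and 0.22 on log2(TPM + 0.1), limma adjusted p = 0.168). In Plin2+/+ liver it read 21.7 ± 1.11 fed and 24.3 ± 2.24 fasted (0.17 ± 0.13, edgeR adjusted p = 0.33). Psip1 read 21.3 ± 1.52 and 26.3 ± 4.99 CPM in fed and fasted Plin2+/+ liver (0.30 ± 0.13, edgeR adjusted p = 0.0587). Its overlapping partner Snapc3 read 8.25 ± 1.502 and 9.76 ± 1.33 (0.24 ± 0.16, edgeR adjusted p = 0.22). Haus6, the augmin gene, read 4.95 ± 0.233 and 4.67 ± 0.823 CPM (-0.08 ± 0.12, edgeR adjusted p = 0.641). In null liver these 3 genes had log2 changes of 0.07, -0.12 and -0.19 (edgeR adjusted p = 0.722, 0.585 and 0.236).

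**Figure D4:**
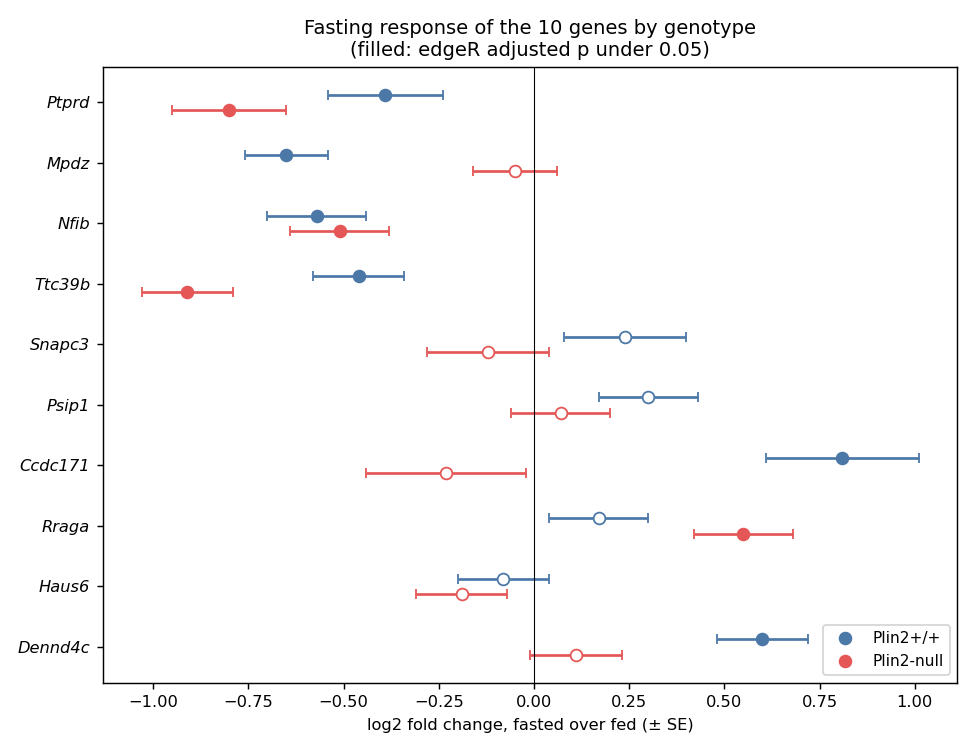
Log2 fold change, fasted over fed, with SE for each of the 10 genes in Plin2+/+ (blue) and null (red) liver; filled points have an edgeR adjusted p under 0.05. Nfib, Ttc39b and Ptprd are filled and under 0 in both genotypes, whereas Mpdz, Ccdc171 and Dennd4c are filled for Plin2+/+ and open for null liver, and Rraga the reverse, which is not read as a difference in response.

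Scaling mattered for the fasting changes, and markers of other cell types moved with fasting. With library size alone in place of TMM the median log2 change of all genes shifted to -0.162 in Plin2+/+ and -0.214 in null liver, and on log2(TPM + 0.1) to -0.16 and -0.281. Haus6, at -0.41 in null liver with library size alone, is to be read against that shift. The 5 Kupffer cell markers, all detected, summed to 309 to 403 CPM in fed and 162 to 290 in fasted Plin2+/+ liver, and to 239 to 528 and 220 to 281 in null liver. The 4 stellate cell markers summed to 306 to 492, 281 to 416, 312 to 412 and 291 to 402 CPM in the same order of groups, and the 4 endothelial markers to 221 to 284, 242 to 262, 202 to 248 and 215 to 260. The 3 lymphocyte markers, all detected, summed to 2.15 to 2.81 CPM in fed and 0.737 to 1.83 in fasted Plin2+/+ liver, and to 1.99 to 2.47 and 1.75 to 3.01 in null liver. Of the 2 pancreatic acinar markers Prss1 was at 0 in every library, and the sum, which is Cela1 alone, was 7.72 to 20.3 CPM fed and 2.71 to 4.19 fasted in Plin2+/+ liver and 14.8 to 27.4 and 3.66 to 5.86 in null liver. The 4 cholangiocyte markers summed to 6.19 to 8.20, 3.36 to 6.43, 5.49 to 8.69 and 5.45 to 7.52 CPM in the same order of groups. Fed and fasted ranges thus did not overlap for the Kupffer and lymphocyte lists in Plin2+/+ liver and for Cela1 in both genotypes, each being lower after fasting. Their part in the changes of the 10 genes was not tested, and in whole liver fewer cells of a type and less RNA per cell cannot be told apart.

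Over the 20 libraries the log2 CPM of Mpdz had a Pearson r of -0.888 with Ccdc171 and -0.918 with Plin2, and between -0.597 and 0.611 with the other 8 genes of the region. These coefficients are descriptions over libraries that fall into separate genotype groups for Mpdz. Among all genes with a mean of at least 1 CPM outside this set, the most like Mpdz were Gm13453 (r = 0.915), Pnldc1 (0.786), Nfrkb (0.784), Lrrc8d (0.77) and Evi5l (0.763), none of them on chromosome 4. Gm13453, a processed pseudogene at chr2:40127504-40127860, was the only gene outside the window called in both genotype comparisons. It stood at 0.0549 ± 0.0426 CPM in fed Plin2+/+ and 2.495 ± 1.24 in fed null liver (edgeR adjusted p = 2.52e-06), and at 0.0283 ± 0.0191 and 3.53 ± 1.33 in fasted liver (edgeR adjusted p = 3.11e-07). Every null library, from 0.606 CPM up, lay above every Plin2+/+ library, at 0.124 CPM or less. Reads of a processed pseudogene can be shared with its parent gene, so its level is uncertain.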

How the data were processed

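Mouse liver RNA was sequenced as stranded mRNA libraries (per the labels' protocols). Raw counts by Ensembl gene, and TPM values, were deposited by the authors in separate tables. HISAT2 1.2.1 and featureCounts 1.4.6-p1 are named in the submitters' processing notes, which list GRCh38 although the identifiers are mouse; the sources used here do not give the mouse build, annotation or strand setting of the counting. The deposited TPM header stands 1 cell left of its values; all 20 columns were matched to their libraries through the counts. Symbols and GRCm38 positions (GENCODE M21) matched 55141 of 55487 identifiers. The counts of 40 library pairs, each from 1 group, were set against each other by chi-square; at 45.3 or more per degree of freedom, every pair differed beyond sampling noise.

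Counts were fitted with edgeR 4.0.16 in R 4.3.3 (filterByExpr, TMM, glmQLFit robust, glmQLFTest) over all 20 libraries with 1 coefficient per group, adjusted by Benjamini-Hochberg over 16312 genes; called means adjusted p under 0.05. Standard errors were obtained by dividing the absolute log2 fold change by the root of F. Per-gene counts of the 10 genes ran from 44 to 9226 per library. Alternatives were DESeq2 1.42.0, limma 3.58.1 (voom, or log2 TPM with a pseudocount of 1 or 0.1), RLE factors, library size alone, no filter or at least 5 CPM in 5 libraries, the compared groups alone, windows of 10 and 40 Mb and leaving out each library; removing each library's GC trend was chosen after seeing the data. Plin2 was tested by exact permutation.

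The genes and lists were chosen with earlier results of these data known. Besides the 10 genes and Plin2, the text names the 5 nearest tested protein-coding genes on each side, genes within 20 Mb called by genotype with a mean of at least 1 CPM (10 at most), genes elsewhere called in both genotype comparisons, the 5 genes most like Mpdz, and markers of hepatocytes and 7 other cell types.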

Additional observations from a re-analysis of the deposited data

Results flagged for a closer look

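In 44 groups of 5 libraries (the 10 genes and Plin2 in 4 groups each), the highest or lowest value was compared with the range of its group; chance picks out about 1 in 20 such groups. None of the 10 genes stood out. Plin2 stood out in null fed replicate 1, at 32.07 CPM against 15.33 to 17.77 in the other 4 libraries (gap over range 0.854). It also stood out in null fasted replicate 5, at 130.4 CPM against 75.14 to 85.38 (gap over range 0.815).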

How the results depend on the processing

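No paired analysis was possible because the replicate numbers follow accession order and no label ties a library of 1 group to a library of another. No result changed direction among those called. In fed liver the count among the 10 genes, and the count within 20 Mb, went from 1 to 2 with DESeq2 and with the GC trend removed, Ttc39b joining Mpdz in both, and ran from 1 to 2 with libraries left out. In fasted liver the count among the 10 genes was 4 and fell to 2, Mpdz and Ccdc171, on both TPM scales and with only the 2 groups compared; with libraries left out it ran from 2 to 4. The fasted count within 20 Mb was 7; it was 14 with DESeq2, 3 with library size alone, 2 on log2(TPM + 1), 2 on log2(TPM + 0.1), 4 with only the 2 groups compared, 4 in a window of 10 Mb and 15 in a window of 40 Mb, and ran from 2 to 13 with libraries left out. Over all genes, calls by genotype in fasted liver were 528, against 1404 with DESeq2, 108 with library size alone, 39 and 27 on the TPM scales, 104 with only the 2 groups compared and 319 without a filter; in fed liver 3, against 7 with DESeq2. With libraries left out, the fasting counts among the 10 genes were 5 to 6 in Plin2+/+ and 4 in null liver. Fasting calls of single genes that changed, besides those given with the results, were Dennd4c in Plin2+/+ liver, lost on log2(TPM + 1) (limma adjusted p = 0.0723) and log2(TPM + 0.1) (0.0737); Psip1 in Plin2+/+ liver, gained without fasted replicate 3 (edgeR adjusted p = 0.0296) or 5 (0.0307), in a range of 0.0296 to 0.246; and Haus6 in null liver, gained with library size alone (edgeR adjusted p = 0.0427) and on TPM (limma adjusted p = 0.0372 and 0.0477). Ccdc171 was not tested under the stricter filter, which it did not pass. Except for that filter, the restricted fits and the windows, whose own construction tests fewer or more genes or samples, the cause was not tested. The lowest counts were those of Ccdc171, at 44 to 448 per library, and its log2 fold changes had standard errors of 0.20 to 0.21.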
